A study of Homo sapiens with 24 samples.

Results

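The human genes named ZNF and a number encode proteins built mostly from C2H2 zinc fingers, and 168 of them were expressed strongly enough in HEL cells to be described here. They were chosen by their mean level: protein-coding genes of that name with at least 15 CPM on average over all 24 libraries, where CPM is a gene's count scaled to a fixed library total. That left 168 of 505 such genes, among 34213 genes in the count table. The rule used only the mean level over all libraries, so levels are given below as a description. Differences between groups do not enter the rule, but it was chosen with earlier results of these data known. HEL is an erythroleukaemia cell line that carries an activating JAK2 mutation. The cells received ruxolitinib, fedratinib, momelotinib, pacritinib or itacitinib, 5 inhibitors of Janus kinases, each at 500 nM, or DMSO, the solvent, and RNA was sequenced 4 h or 48 h later. This gave 12 groups, with 2 libraries in each. The labels do not say whether these were separate cultures, so the tests measure the spread between libraries, which may be technical.

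A C2H2 finger is a short fold held by a zinc ion between a pair of cysteines and a pair of histidines, and rows of such fingers read DNA bases. In many of these proteins the fingers follow a KRAB box, which binds the co-repressor TRIM28 and through it the histone methyltransferase SETDB1 and heterochromatin protein 1; such proteins are known for silencing transposable elements. Many KRAB zinc finger genes lie in clusters on chromosome 19 that arose by repeated duplication. Others carry a SCAN domain, through which they pair with each other, or neither domain, and this last kind includes activators, RNA-binding proteins and ribosome assembly factors.

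A KRAB box was found by letter pattern in the longest GENCODE 29 protein of 72 of the 168 genes (42.9%), and in 233 of the 337 ZNF genes below 15 CPM (69.1%). The pattern misses diverged boxes, and false matches were not checked, so these shares are approximate. On chromosome 19 lay 60 of the 168 (35.7%), 41 of them with a KRAB box, and 185 of the 337 (54.9%). Among the 168, the median number of C2H2 fingers was 12 with a KRAB box and 7 without one. The highest number was 31, which ZNF91, a KRAB protein known to silence SVA elements in primates, shares with 1 other gene. A SCAN domain was found in 9 genes, 3 of which had a KRAB box as well. For 88 genes some part of another ZNF gene lay within 100 kb, and 61 of these 88 had a KRAB box. Reads from such near copies can be counted for either gene, so single values of clustered genes are less certain. A further limit is that exons of 53 genes overlap a gene on the opposite strand. Whether the counting used strand is not given in the sources used here. Among genes named below this concerns ZNF7, ZNF33B, ZNF143, ZNF146, ZNF217, ZNF276, ZNF292, ZNF324, ZNF333, ZNF384, ZNF394, ZNF512B, ZNF518A, ZNF593, ZNF598, ZNF638, ZNF646, ZNF664, ZNF687, ZNF710 and ZNF785.

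Promoter windows were available for 147 of the 168 genes, taken from RefSeq on GRCh38.p14, from 250 bases before to 50 after the start of the gene. The sequence CCGGAAG, which ETS factors bind, was searched on both strands and occurred in 64 of the 147 (43.5%). It occurred in 22.3% of 6448 windows of protein-coding genes with a mean of at least 15 CPM and in 10.7% of all 27305 windows. With a KRAB box the share was 52.3% of 65 windows, and without one 36.6% of 82. The sequence ACTACAA, a core recognised by ZNF143, occurred in 7.48% of the 147 windows, 4.26% of the windows of genes at that level and 2.95% of all windows. The palindrome TTCNNNGAA, which STAT factors bind, occurred in 7.48%, 6.05% and 7.88%. With a KRAB box it occurred in 9 of 65 windows (13.8%), and without one in 2 of 82 (2.44%). This difference was not tested. A match is a description of the letters and does not show binding. The median number of CG dinucleotides per window was 24 in the 147 genes, 27 in genes at that level and 14 in all. The windows of 4 genes that the results turn on are shown, 5′ to 3′ on the strand of the gene, with the motif found in capitals. ZNF697 (chr1:119648217-119648516, minus strand) fell most after 4 h of pacritinib and holds ACTACAA. ZNF580 (chr19:55640752-55641051, plus strand) rose most in the same cells and holds CCGGAAG on its opposite strand. ZNF175 (chr19:51571033-51571332, plus strand) fell with ruxolitinib at both times, and also with momelotinib after 4 h and pacritinib after 48 h. ZNF362 (chr1:33256242-33256541, plus strand) rose with ruxolitinib and pacritinib. Both ZNF175 and ZNF362 hold CCGGAAG. In this set no window holds TTCNNNGAA.
ZNF697: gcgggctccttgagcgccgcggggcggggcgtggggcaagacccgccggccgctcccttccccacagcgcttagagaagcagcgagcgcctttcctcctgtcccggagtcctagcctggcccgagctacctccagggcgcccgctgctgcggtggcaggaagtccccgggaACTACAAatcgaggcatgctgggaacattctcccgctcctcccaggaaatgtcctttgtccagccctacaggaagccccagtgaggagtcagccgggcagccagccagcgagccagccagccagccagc
ZNF580: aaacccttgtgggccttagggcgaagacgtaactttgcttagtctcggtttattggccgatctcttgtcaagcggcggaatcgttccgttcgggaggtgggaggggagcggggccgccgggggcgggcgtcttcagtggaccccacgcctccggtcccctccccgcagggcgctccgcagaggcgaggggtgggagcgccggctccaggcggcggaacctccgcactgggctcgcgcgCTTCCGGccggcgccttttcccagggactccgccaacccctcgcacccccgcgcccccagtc
ZNF175: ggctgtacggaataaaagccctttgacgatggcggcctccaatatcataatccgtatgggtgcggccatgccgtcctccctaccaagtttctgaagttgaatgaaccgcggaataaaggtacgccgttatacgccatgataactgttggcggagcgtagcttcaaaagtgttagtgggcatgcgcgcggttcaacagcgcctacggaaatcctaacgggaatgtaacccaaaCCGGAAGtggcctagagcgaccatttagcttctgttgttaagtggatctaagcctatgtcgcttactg
ZNF362: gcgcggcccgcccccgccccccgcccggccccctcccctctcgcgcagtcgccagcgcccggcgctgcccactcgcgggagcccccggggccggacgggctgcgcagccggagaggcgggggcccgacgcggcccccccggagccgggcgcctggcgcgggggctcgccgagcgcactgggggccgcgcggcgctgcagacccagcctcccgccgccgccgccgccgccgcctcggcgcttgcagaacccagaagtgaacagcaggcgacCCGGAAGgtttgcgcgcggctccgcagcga

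Total counts were 32153866 to 56618281 per library. The erythroid markers GATA1, TAL1, KLF1 and HBG2 averaged 205, 494, 134 and 2046 CPM, and ITGA2B, which marks megakaryocytes, averaged 777 CPM. Among the 9 markers of other blood cells or of tissues outside blood the highest value in any library was 1.023 CPM, for COL1A1. RN7SL copies, small cytoplasmic RNAs whose share can vary with library preparation, took 2.80% to 3.98% of counts with the inhibitors after 4 h and 2.42% and 2.52% with DMSO. After 48 h they took 3.10% to 4.76% with the inhibitors and 3.05% and 3.36% with DMSO. Mitochondrial rRNA (the sum of MT-RNR1 and MT-RNR2) made up 0.0604% and 0.0611% of counts with ruxolitinib after 4 h, against 0.0181% and 0.00715% with DMSO. The part of either RNA in the results below was not tested.

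Together the 168 genes took 0.765% to 0.829% of all counts in the 24 libraries. Their summed level was 7647 to 8285 CPM, with an SD of 134 CPM between libraries of the same group. The lowest group means of this sum were 7719 CPM with pacritinib and 7741 CPM with ruxolitinib, both after 4 h, against 8124 CPM with DMSO after 4 h. Fedratinib and ruxolitinib after 48 h, at 7742 and 7778 CPM, lay within that SD of these 2, and DMSO after 48 h was at 7941 CPM. Mean levels of single genes ran from 15.2 to 445 CPM with a median of 29.1 CPM. Just inside the threshold were ZNF70 (15.2 CPM), ZNF761 (15.4 CPM) and ZNF33B (15.5 CPM), and just outside it were ZNF226 (14.7 CPM), ZNF772 (14.5 CPM) and ZNF791 (14.5 CPM). The highest were ZNF385A at 445 CPM, ZNF207 at 323 CPM, ZNF121 and ZNF609 at 250 CPM each and ZNF664 at 195 CPM. ZNF385A binds RNA, and its mouse counterpart acts in megakaryocytes; ZNF207, also called BuGZ, binds microtubules and kinetochores in mitosis. Per kilobase of annotated exon, the levels ran from 0.943 to 140 RPKM, the median being 3.31 RPKM for genes with a KRAB box and 7.82 RPKM for those without.

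Most of these genes moved little. The log2 range of the 12 group means had a median of 0.36 and was under 0.5 in 132 of the 168 genes, while the SD between libraries of a group had a median of 0.078 on the same scale. The range reached 1 in 2 genes, ZNF318 (1.08) and ZNF697 (1.07), followed by ZNF580 (0.99), ZNF518A (0.78) and ZNF175 (0.74). The narrowest ranges were those of ZNF646 (0.12), ZNF496, ZNF787, ZNF324 and ZNF394, which lay between 0.12 and 0.19. The group with the lowest mean was most often pacritinib after 4 h (48 genes) or ruxolitinib after 4 h (43 genes). The highest mean was most often found with pacritinib after 4 h (34 genes) or ruxolitinib after 48 h (22 genes). Of the 168, 59 were called in none of 11 comparisons, those of the inhibitors with DMSO at the same time and that of DMSO at 48 h with DMSO at 4 h. A gene was called at an adjusted p under 0.05 in edgeR's quasi-likelihood test, adjusted by Benjamini-Hochberg over all 16076 genes tested; all 168 were tested. ZNF512B and ZNF384 were called most often, in 5 of 11. The 5 comparisons at each time share their DMSO libraries, so their values are given side by side and not counted as separate evidence.

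**Figure D1:**
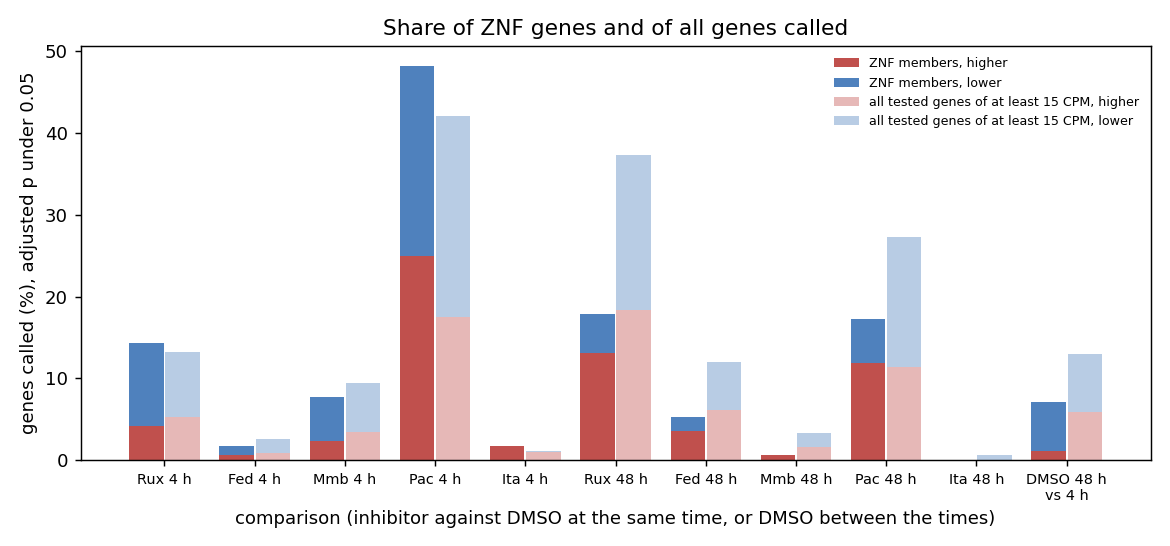
Share of genes called at an adjusted p under 0.05 in each comparison (bars start at 0; red or pink, higher; blue or light blue, lower), for the 168 ZNF genes (dark bars) and for all 8036 tested genes with a mean of at least 15 CPM (pale bars). Rux, Fed, Mmb, Pac and Ita stand for ruxolitinib, fedratinib, momelotinib, pacritinib and itacitinib. With pacritinib after 4 h 48.2% of ZNF genes and 42.1% of all genes at that level were called, and with ruxolitinib after 48 h 17.9% and 37.3%.

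Pacritinib after 4 h gave the highest number of called ZNF genes among the comparisons with DMSO, in both directions. Of the 168, 42 rose and 39 fell, together 48.2%; over all tested genes 30.6% were called (13.1% higher and 17.4% lower), and over tested genes with a mean of at least 15 CPM 42.1%. ZNF697 was at 12.01 and 10.6 CPM with pacritinib, against 23.97 and 23.5 CPM with DMSO. This was the widest change among the 168 in any comparison with DMSO, and the groups did not overlap (log2 fold change -1.0, SE 0.084, adjusted p = 7.74e-11). ZNF697 (ENSG00000143067, chromosome 1, 119619422 to 119647773, minus strand, GENCODE 29, ending before the RefSeq start used above) has 11 fingers; its mouse counterpart acts in muscle regeneration. ZNF580 was at 46.4 and 45.7 CPM with pacritinib, against 29.9 and 27.2 CPM with DMSO. It rose by 0.76 on the log2 scale without overlap (SE 0.084, adjusted p = 2.13e-08). ZNF580 (ENSG00000213015, chromosome 19, 55635016 to 55643469, plus strand) encodes a small protein of 172 residues with 3 fingers. Which direction held more calls depended on the library left out: 23 were higher and 33 lower without DMSO replicate 1, 26 and 28 without DMSO replicate 2, 34 and 35 without pacritinib replicate 1 and 23 and 23 without pacritinib replicate 2. With the 4 h libraries alone 35 were higher and 37 lower. Of the 81 calls, 33 held in all 4 fits that left out a library and in every other setting, among them those of all genes named here and next for pacritinib after 4 h.

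Besides ZNF697, the genes that fell furthest were ZNF518A, ZNF71, ZNF236, ZNF45 and ZNF689. ZNF518A, whose relative ZNF518B binds the histone methyltransferase G9a, was at 35.4 and 33.1 CPM with pacritinib, against 55.1 and 53.4 CPM with DMSO (log2 fold change -0.60, SE 0.076, adjusted p = 3e-07). ZNF236, a protein of 30 fingers, was at 26.7 and 25.6 CPM, against 42.5 and 39.9 CPM with DMSO (-0.59, SE 0.073, adjusted p = 2e-07). In both genes the DMSO libraries lay well above the pacritinib libraries. ZNF45, ZNF71 and ZNF689, which carry KRAB boxes, fell by 0.58, 0.59 and 0.54. ZNF335, a co-activator needed in neural progenitors, was at 47.1 and 44.4 CPM, against 66.1 and 66.8 CPM with DMSO (-0.47, SE 0.059, adjusted p = 2.14e-07). ZNF518B also fell, to 50.5 and 46.2 CPM, against 66.9 and 60.1 CPM with DMSO (-0.32, SE 0.069, adjusted p = 0.000557). After ZNF580, the genes that rose most were ZNF785, ZNF292, ZNF276, ZNF507 and ZNF426. ZNF785, a KRAB gene, was at 22.5 and 21.0 CPM with pacritinib, against 13.8 and 13.8 CPM with DMSO (0.72, SE 0.094, adjusted p = 4.25e-07). ZNF276 was at 43.5 and 37.7 CPM, against 29.1 and 28.8 CPM with DMSO (0.56, SE 0.075, adjusted p = 8.38e-07). In both, each pacritinib library exceeded each DMSO library. ZNF292, whose rat counterpart was described as an activator of the growth hormone gene, was at 67.0 and 75.7 CPM, against 52.5 and 48.1 CPM with DMSO (0.58, SE 0.088, adjusted p = 6.2e-06). ZNF507 and ZNF426 rose by 0.54 each.

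**Figure D2:**
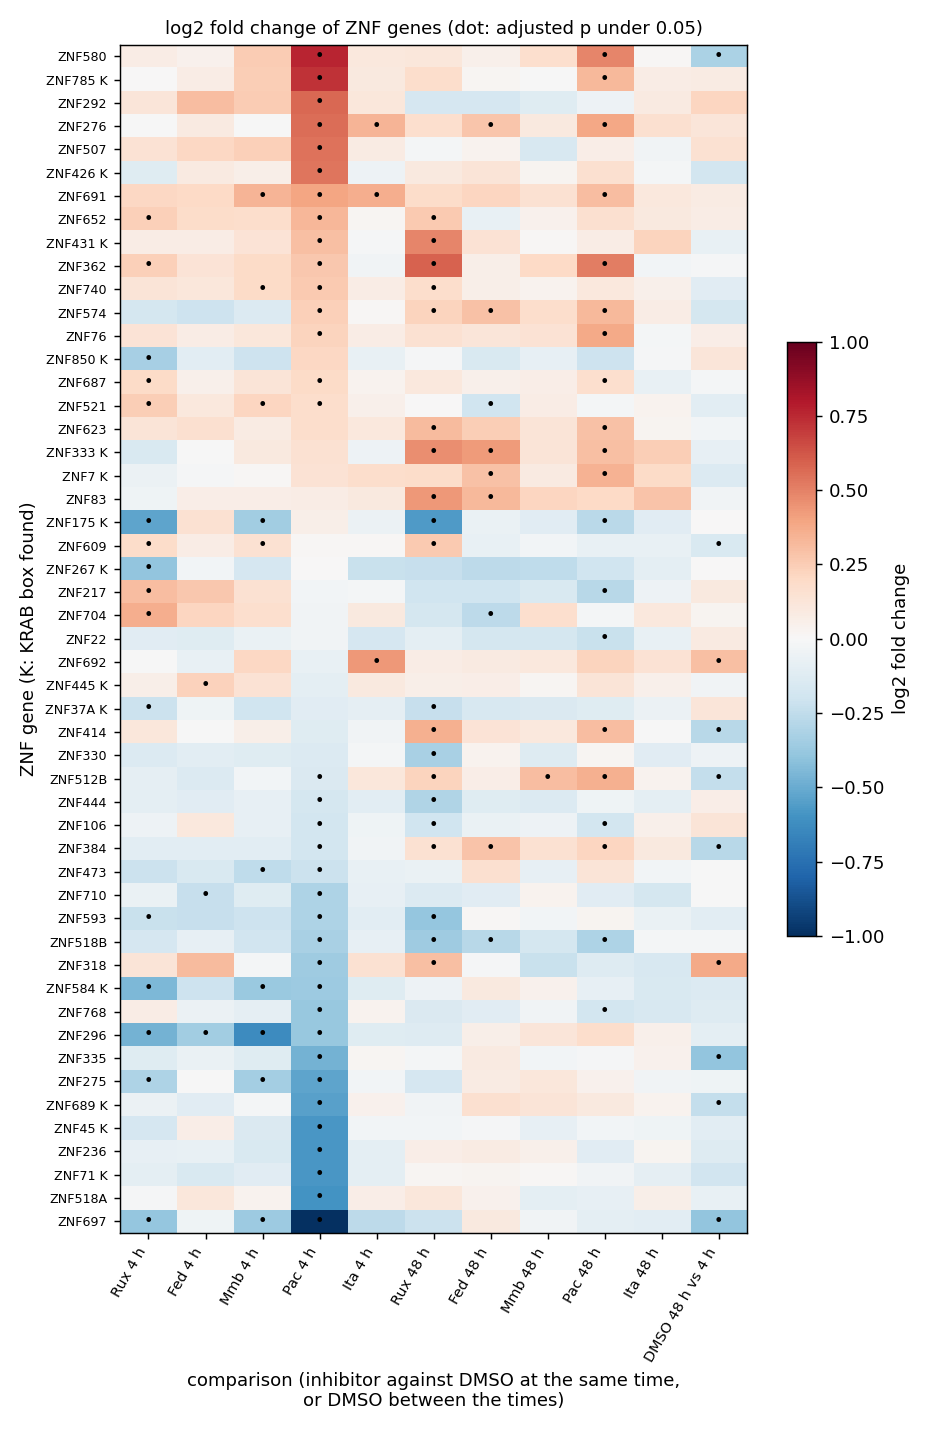
Log2 fold changes (colour, red higher and blue lower) of the 51 ZNF genes that were among the 6 most changed called genes per direction in a comparison, in rows ordered by their change with pacritinib after 4 h; columns are the 11 comparisons, a dot marks an adjusted p under 0.05 and K marks a KRAB box. Pacritinib after 4 h holds the deepest colours at both ends, from 0.76 for ZNF580 to -1.0 for ZNF697.

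After 48 h with pacritinib, 20 of the 168 genes were higher and 9 lower than with DMSO (17.3%, with 18.3% of all tested genes called, 8.26% higher and 10.1% lower, and 27.3% of those with a mean of at least 15 CPM). ZNF580 was still higher, at 32.8 and 31.2 CPM with pacritinib, against 21.9 and 24.6 CPM with DMSO (log2 fold change 0.49, SE 0.089, adjusted p = 0.000168). ZNF362 was at 86.3 and 74.3 CPM, against 57.2 and 57.2 CPM with DMSO (0.51, SE 0.062, adjusted p = 2.86e-07). Neither gene's groups overlapped. ZNF276 rose by 0.39, ZNF76, a close relative of ZNF143, by 0.38 and ZNF512B by 0.35. ZNF518B was at 48.6 and 51.9 CPM, against 62.5 and 64.3 CPM with DMSO (-0.31, SE 0.070, adjusted p = 0.00187). ZNF175 fell by 0.27 (SE 0.072, adjusted p = 0.00737). The number called was 14 without DMSO replicate 1, 11 without DMSO replicate 2, 12 without pacritinib replicate 1 and 19 without pacritinib replicate 2. Calls for ZNF580, ZNF362, ZNF276, ZNF76, ZNF512B, ZNF518B and ZNF7 held in all of these fits, and that for ZNF175 did not.

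The change with pacritinib differed between the times for 41 genes (24.4%; over all tested genes 17.9%, 10.3% higher and 7.58% lower, and over those with a mean of at least 15 CPM 26.5%), being more positive at 48 h for 30 and more negative for 11. For ZNF697 the log2 change was -0.10 at 48 h and -1.0 at 4 h, a difference of 0.90 (SE 0.12, adjusted p = 1.8e-06, edgeR interaction term). At 48 h its libraries were at 15.8 and 17.6 CPM with pacritinib and at 17.4 and 19.1 CPM with DMSO, so the groups overlapped. In the DMSO libraries themselves ZNF697 was lower at 48 h than at 4 h, as given below. The difference was 0.64 for ZNF689, 0.51 for ZNF518A and 0.45 for ZNF335, and -0.63 for ZNF292, whose rise at 4 h was not seen at 48 h (log2 change -0.05). For ZNF512B it was 0.50, with changes of 0.35 at 48 h and -0.14 at 4 h. For ZNF580 the difference of -0.28 did not pass the test (adjusted p = 0.118). Leaving out DMSO 4 h replicate 1, pacritinib 4 h replicate 2 or DMSO 48 h replicate 2 gave 27, 20 and 23 genes in place of 41.

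**Figure D3:**
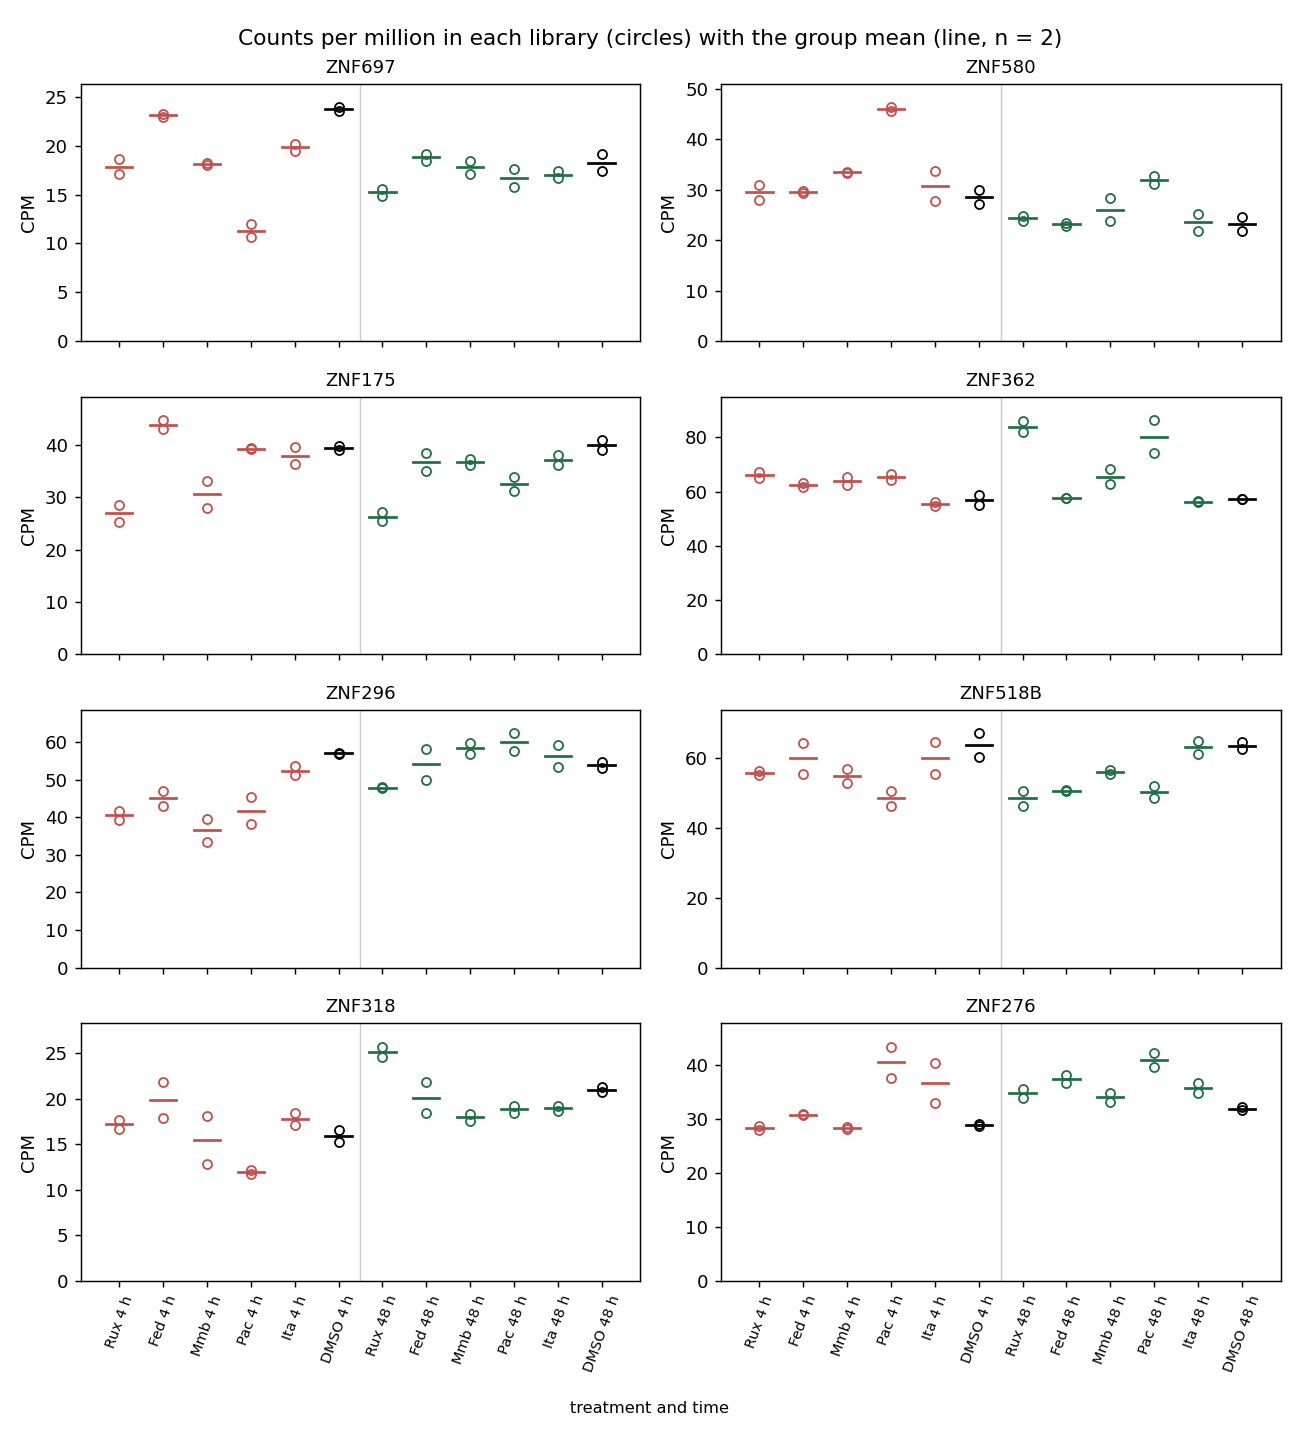
CPM of 8 ZNF genes in each of the 24 libraries (circles; red, inhibitors at 4 h; green, inhibitors at 48 h; black, DMSO), with a line at the mean of the 2 libraries of a group; axes start at 0. ZNF697 is lowest with pacritinib after 4 h (12.01 and 10.6 CPM), ZNF580 is highest there (46.4 and 45.7 CPM), ZNF175 is low with ruxolitinib at both times and ZNF362 is high with ruxolitinib and pacritinib after 48 h.

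With ruxolitinib, 7 of the 168 genes were higher and 17 lower than with DMSO after 4 h, together 14.3%. Of all tested genes 8.47% were called, and of those with a mean of at least 15 CPM 13.2%. ZNF175, a KRAB gene also called OTK18 and first described as a repressor of HIV transcription in macrophages, was at 25.3 and 28.5 CPM with ruxolitinib, against 39.0 and 39.8 CPM with DMSO (log2 fold change -0.53, SE 0.073, adjusted p = 4.63e-06). ZNF296, whose mouse counterpart acts with KLF4 in pluripotent cells, was at 41.8 and 39.3 CPM, against 56.9 and 57.1 CPM with DMSO (-0.47, SE 0.084, adjusted p = 0.000213). In both genes the groups were well apart. ZNF584, another KRAB gene, was at 16.6 and 15.4 CPM, against 22.1 and 22.2 CPM with DMSO (-0.45, SE 0.087, adjusted p = 0.000619), and ZNF697 fell by 0.39. ZNF704 was at 26.9 and 28.2 CPM, against 21.6 and 22.0 CPM with DMSO, the clearest rise (0.36, SE 0.075, adjusted p = 0.00129). These 5 calls held in every other fit. ZNF217, an oncogene of breast cancer, was at 39.3 and 41.7 CPM, against 34.4 and 32.2 CPM with DMSO (0.31, adjusted p = 0.00776), a call lost when DMSO replicate 2 was left out (adjusted p = 0.145) and when ruxolitinib replicate 2 was (adjusted p = 0.0948). ZNF521, a regulator of blood progenitors, rose by 0.25, a call lost without ruxolitinib replicate 2 (adjusted p = 0.0852). Leaving out 1 of the DMSO libraries gave 15 calls (replicate 1) or 9 (replicate 2), and leaving out 1 of the ruxolitinib libraries gave 10 (replicate 1) or 9 (replicate 2).

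With ruxolitinib after 4 h the calls among KRAB genes were all in the lower direction. With a KRAB box 0 of 72 rose and 9 fell, the median log2 change being -0.11; without one 7 of 96 rose and 8 fell, the median being -0.03. Over all tested genes 3.42% rose and 5.04% fell, with a median of 0.00. Among tested genes with a mean of at least 15 CPM the share called, given above, was higher. The share of KRAB genes called, both directions together, was close to that share. These shares also stand beside the ruxolitinib counts on chromosome 19 below. Of the 72 KRAB genes, 17 had a log2 change above 0. Their median lay between -0.11 and -0.09 in 11 other fits, RLE scaling, DESeq2 and each left-out library included, and in each of these fits no KRAB gene rose. In place of 9, 5 KRAB genes fell when replicate 1 of DMSO was left out and 4 when its replicate 2 was; leaving out replicate 1 of ruxolitinib gave 4, and replicate 2 gave 5. With RLE scaling 6 fell, and with 1 time point only 5. The ZNF genes under 15 CPM that were tested (279) had a median of -0.05, with 1 higher and 3 lower. KRAB genes have lower levels than the others (median 21.6 CPM with a KRAB box, 45.1 CPM without one), and whether level, the share of RN7SL or the KRAB box goes with the shift was not tested. With pacritinib after 4 h the KRAB genes had 18 higher and 11 lower and a median of 0.05, and the others 24 higher and 28 lower and a median of -0.03. Over all tested genes 13.1% rose and 17.4% fell with pacritinib. The share called at 15 CPM or more, given above, was higher, and that of KRAB genes was close to it. These too stand beside the pacritinib counts on chromosome 19. The KRAB genes then had 8 higher and 9 lower without DMSO replicate 1, 9 and 9 without DMSO replicate 2, 13 and 10 without pacritinib replicate 1 and 8 and 8 without pacritinib replicate 2, so the excess of higher calls rested on single libraries. On chromosome 19, 0 of 60 genes rose and 9 fell with ruxolitinib after 4 h, a number that became 4 to 6 when a library was left out. With pacritinib 20 of the 60 rose and 10 fell, against 10 and 8 without DMSO replicate 1, 11 and 7 without DMSO replicate 2, 15 and 10 without pacritinib replicate 1 and 11 and 4 without pacritinib replicate 2.

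**Figure D4:**
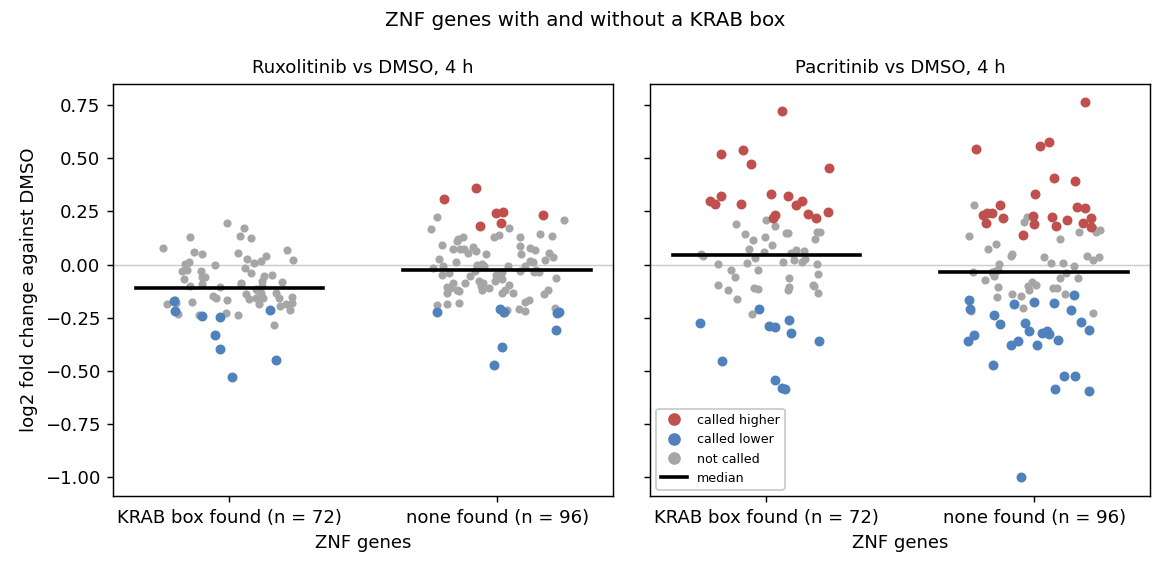
Log2 fold change of each ZNF gene against DMSO after 4 h of ruxolitinib (left) and pacritinib (right), for 72 genes with a KRAB box and 96 in which none was found; red and blue points are called higher and lower, grey points are not called and the black line is the median. With ruxolitinib no KRAB gene is called higher and 9 are called lower, and the median is -0.11 with a KRAB box and -0.03 without.

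After 48 h of ruxolitinib, 22 of the 168 genes were higher and 8 lower than with DMSO. This is 17.9%, whereas 25.7% of all tested genes (12.5% higher and 13.2% lower) and 37.3% of those with a mean of at least 15 CPM were called. ZNF362 was at 81.8 and 85.9 CPM with ruxolitinib, against 57.2 and 57.2 CPM with DMSO, the strongest rise (log2 fold change 0.59, SE 0.062, adjusted p = 3.83e-09). ZNF362 (ENSG00000160094, chromosome 1, 33256545 to 33300719, plus strand) has 6 fingers and is a relative of ZNF384. ZNF175 (ENSG00000105497, chromosome 19, 51571298 to 51592508, plus strand) was at 27.1 and 25.4 CPM, against 39.0 and 40.9 CPM with DMSO (-0.56, SE 0.073, adjusted p = 3.14e-07). Its change at 48 h was close to that at 4 h, with a difference of -0.04 (SE 0.10, adjusted p = 0.89), which does not show that the changes were equal. The KRAB genes ZNF431 and ZNF333 rose by 0.49 and 0.46, and ZNF83 by 0.44. ZNF593, a factor of large ribosomal subunit assembly related to yeast Bud20, was at 53.5 and 57.0 CPM, against 77.8 and 70.7 CPM with DMSO (-0.39, SE 0.068, adjusted p = 4.01e-05). ZNF518B was at 46.1 and 50.5 CPM, against 62.5 and 64.3 CPM with DMSO (-0.35, SE 0.070, adjusted p = 0.000251). ZNF609, the most abundant gene among those called here, was at 277 and 269 CPM, against 235 and 233 CPM with DMSO (0.26, SE 0.045, adjusted p = 2.39e-05). In all of these the libraries of the groups did not overlap, and their calls held in every other fit. Without ruxolitinib replicate 2 the number called was 18. Between the times the ruxolitinib change differed for 12 genes (8.72% of all tested genes, 4.32% higher and 4.4% lower). ZNF704, higher than with DMSO at 4 h, was at 19.4 and 19.1 CPM with ruxolitinib at 48 h, against 23.0 and 21.9 CPM with DMSO, a difference between the times of -0.54 (adjusted p = 0.000788). ZNF217, also higher at 4 h, was at 29.9 and 31.1 CPM with ruxolitinib at 48 h, against 36.0 and 36.1 CPM with DMSO (-0.51, adjusted p = 0.00185). That count was 7 without DMSO 48 h replicate 2, 7 without ruxolitinib 48 h replicate 1 and 6 without ruxolitinib 48 h replicate 2.

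Momelotinib lowered 9 and raised 4 of the 168 genes after 4 h (7.74%, with 6.0% of all tested genes called, 2.21% higher and 3.79% lower). Where both shares are given above, tested genes with a mean of at least 15 CPM were called more often than all tested genes. Where only the share of all tested genes is given, as here, it may lie below the share at that level. ZNF296 was at 39.6 and 33.4 CPM with momelotinib, against 56.9 and 57.1 CPM with DMSO (log2 fold change -0.63, SE 0.084, adjusted p = 4.88e-06). ZNF697 was at 18.1 and 18.3 CPM, against 23.97 and 23.5 CPM with DMSO (-0.37, SE 0.080, adjusted p = 0.00342). ZNF584 fell by 0.37 (SE 0.085, adjusted p = 0.00518) and ZNF175 by 0.35 (SE 0.071, adjusted p = 0.00168). The calls for ZNF584 and ZNF175 did not hold in every other fit. These calls, for ZNF296 and ZNF697, held in every other fit, and the number called was 6 without DMSO replicate 1 (0 higher, 6 lower), 5 without DMSO replicate 2 (0 and 5) and 8 without momelotinib replicate 2 (2 and 6). Which direction held more calls depended on the setting: 5 were higher and 4 lower without momelotinib replicate 1, and 9 higher and 8 lower with no low-count filter. After 48 h ZNF296 was at 59.7 and 56.9 CPM with momelotinib and at 53.1 and 54.8 CPM with DMSO, and its change differed between the times by 0.74 (SE 0.12, adjusted p = 0.000233), 1 of 3 such genes (2.33% of all tested genes, 1.57% higher and 0.759% lower). At 48 h momelotinib raised 1 gene (0.595%, with 1.94% of all tested genes called, 0.995% higher and 0.946% lower), ZNF512B, by 0.31 (adjusted p = 0.00236), a call lost without DMSO replicate 2 (adjusted p = 0.0884) or momelotinib replicate 1 (adjusted p = 0.0504). The number of genes whose change differed between the times was 6 without momelotinib 4 h replicate 1 and 1 without DMSO 48 h replicate 2 or momelotinib 48 h replicate 2. ZNF296 (ENSG00000170684, chromosome 19, 45071500 to 45076588, minus strand) was lower than with DMSO for 4 of the 5 inhibitors after 4 h, at 41.8 and 39.3 CPM with ruxolitinib, 47.0 and 43.0 CPM with fedratinib and 45.4 and 38.2 CPM with pacritinib. The pacritinib call (log2 fold change -0.38, adjusted p = 0.000626) was lost without pacritinib replicate 2 (adjusted p = 0.0598). The fedratinib call was lost without DMSO replicate 1 (adjusted p = 0.0964), DMSO replicate 2 (adjusted p = 0.202) or fedratinib replicate 2 (adjusted p = 0.311). With itacitinib it was at 51.2 and 53.5 CPM, also below both DMSO libraries, and did not pass the test (adjusted p = 0.625). The comparisons share these DMSO libraries.

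Fedratinib and itacitinib moved few ZNF genes. With fedratinib after 4 h 1 was higher, ZNF445, and 2 lower, ZNF296 and ZNF710 (1.79%, with 1.59% of all tested genes called, 0.616% higher and 0.970% lower); the number called was 0 without DMSO replicate 2 or fedratinib replicate 2 and 1 without fedratinib replicate 1. After 48 h of fedratinib 6 were higher and 3 lower (5.36%, with 7.70% of all tested genes called, 3.66% higher and 4.04% lower). ZNF384, a fusion partner in B-cell leukaemia, fell in DMSO itself between the times, from a mean of 136 CPM at 4 h to 114 CPM at 48 h. That log2 fold change was -0.28 (SE 0.053, adjusted p = 0.00087), a call that did not hold in every fit that left out a library. Fedratinib after 4 h had a mean of 127 CPM. With fedratinib after 48 h ZNF384 was at 133 and 135 CPM, against 117 and 111 CPM with DMSO (log2 fold change 0.28, SE 0.053, adjusted p = 0.000679). It was the only call there that held in every fit; the number called was 5 without DMSO replicate 1, 1 without DMSO replicate 2 and 3 without fedratinib replicate 1. The fedratinib change differed between the times for 7 genes (4.12% of all tested genes, 2.00% higher and 2.12% lower), ZNF384 and ZNF574 in every fit, by 0.39 and 0.50. Without DMSO 4 h replicate 2, fedratinib 4 h replicate 2 or fedratinib 48 h replicate 1 that count was 3, and without DMSO 48 h replicate 2 it was 4. With itacitinib after 4 h 3 genes were higher and 0 lower (1.79%, with 0.778% of all tested genes called, 0.672% higher and 0.106% lower), ZNF692 by 0.44, ZNF691 by 0.36 and ZNF276 by 0.34. ZNF692 was at 50.4 and 63.1 CPM with itacitinib, against 40.4 and 43.4 CPM with DMSO, so the itacitinib libraries lay far apart. All 3 calls were lost without DMSO replicate 1, without DMSO replicate 2 and without itacitinib replicate 2, the adjusted p for ZNF692 being 0.177, 0.0839 and 0.739. After 48 h of itacitinib edgeR called 0 of 168 (0.442% of all tested genes, 0.0871% higher and 0.355% lower), with 16 at an unadjusted p under 0.05, and DESeq2 also called 0. Its change differed between the times for 0 genes as well (0.0124% of all tested genes, 0% higher and 0.0124% lower).

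In DMSO alone, 2 of the 168 genes were higher and 10 lower at 48 h than at 4 h (7.14%, with 8.16% of all tested genes called, 4.04% higher and 4.12% lower). ZNF335 was at 50.1 and 52.4 CPM at 48 h, against 66.1 and 66.8 CPM at 4 h (log2 fold change -0.39, SE 0.059, adjusted p = 3.26e-05), a call that held in every other fit. ZNF697 was at 17.4 and 19.1 CPM at 48 h, against 23.97 and 23.5 CPM at 4 h (-0.40, SE 0.081, adjusted p = 0.00168), a call lost without DMSO 48 h replicate 1 (adjusted p = 0.0528). Both genes had groups that did not overlap. ZNF318 and ZNF692 were higher by 0.38 and 0.30; both calls were lost in all 4 fits that left out a library, the adjusted p of ZNF318 lying between 0.0815 and 0.174. The number called was 4 without DMSO 4 h replicate 1, 5 without DMSO 4 h replicate 2, 5 without DMSO 48 h replicate 1 and 4 without DMSO 48 h replicate 2. Mitochondrial rRNA made up 0.0586% and 0.0912% of counts in DMSO at 48 h, against 0.0181% and 0.00715% at 4 h, and its part in these changes was not tested.

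ZNF318, known in mouse B cells for its part in making IgD transcripts, had the widest range over the 12 groups. It was highest with ruxolitinib after 48 h, at 25.7 and 24.6 CPM, and lowest with pacritinib after 4 h, at 12.1 and 11.7 CPM. Fedratinib after 4 h gave 17.9 and 21.8 CPM and momelotinib after 4 h 12.8 and 18.1 CPM, so replicates differed widely in some groups. Its calls against DMSO rest on single libraries: with pacritinib after 4 h (-0.35, adjusted p = 0.0158) the adjusted p was 0.144 without DMSO replicate 2 and 0.108 without pacritinib replicate 2. With ruxolitinib after 48 h (0.30, adjusted p = 0.0308) it lay between 0.0723 and 0.18 in the 4 fits that left out a library. The genes most like it over the 12 group means of log2 CPM were ZNF70 (Pearson r 0.913), ZNF638 (0.872) and ZNF395 (0.815), given as a description with no test since all share the same libraries.

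Inhibitors that share parts of their structure were compared directly, 2 pairs at each time and all at the same dose; adjustment was over the genes within each of these 4 comparisons, not across them. Ruxolitinib and itacitinib share a pyrrolopyrimidine ring system, and pacritinib and fedratinib an anilinopyrimidine core that is closed into a macrocycle in pacritinib. After 4 h, 5 genes were higher and 15 lower with ruxolitinib than with itacitinib (11.9%, with 5.90% of all tested genes called, 2.29% higher and 3.61% lower, and 9.11% of those with a mean of at least 15 CPM). After 48 h 15 were higher and 12 lower (16.1%, with 21.9% of all tested genes called, 11.7% higher and 10.2% lower, and 32.0% of those with a mean of at least 15 CPM). With no low-count filter the 48 h numbers were 12 higher and 15 lower. ZNF175 was at 25.3 and 28.5 CPM with ruxolitinib after 4 h, against 39.6 and 36.2 CPM with itacitinib (log2 difference -0.47, SE 0.073, adjusted p = 5.98e-05). ZNF362 was at 81.8 and 85.9 CPM with ruxolitinib after 48 h, against 56.5 and 56.1 CPM with itacitinib (0.62, SE 0.061, adjusted p = 1.19e-09). The groups did not overlap in either. ZNF697 did not pass the test between them after 4 h, at 17.1 and 18.6 CPM with ruxolitinib and 20.2 and 19.5 CPM with itacitinib, the 95% interval of the log2 difference running from -0.30 to 0.04. The 4 h count was 9 without ruxolitinib replicate 1, 9 without ruxolitinib replicate 2, 13 without itacitinib replicate 1 and 5 without itacitinib replicate 2. The 48 h count was 12 without ruxolitinib replicate 2 and 16 without itacitinib replicate 1.

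Pacritinib and fedratinib differed in 67 genes after 4 h, 29 higher and 38 lower with pacritinib. This is 39.9%, whereas 28.7% of all tested genes (12.1% higher and 16.6% lower) and 41.5% of those with a mean of at least 15 CPM were called. ZNF697 was at 12.01 and 10.6 CPM with pacritinib, against 23.3 and 23.0 CPM with fedratinib (log2 difference -0.96, SE 0.084, adjusted p = 3.34e-10). ZNF518A was at 35.4 and 33.1 CPM, against 57.3 and 60.3 CPM with fedratinib (-0.71, SE 0.075, adjusted p = 1.68e-08), and ZNF580 at 46.4 and 45.7 CPM, against 29.3 and 29.7 CPM with fedratinib (0.72, SE 0.084, adjusted p = 8.7e-08). In all 3 the groups were far apart. ZNF318 was lower by 0.67 (adjusted p = 2.04e-05), a call that held in every fit. After 48 h 12 genes were higher and 4 lower (9.52%, with 12% of all tested genes called, 5.52% higher and 6.48% lower, and 17.8% of those with a mean of at least 15 CPM), and ZNF362 (0.45), ZNF580 (0.44) and ZNF512B (0.29) were higher in every fit. The 4 h count was 43 without fedratinib replicate 2 and 38 without pacritinib replicate 2. The 48 h count was 9 without fedratinib replicate 1, 8 without fedratinib replicate 2, 6 without pacritinib replicate 1 and 5 without pacritinib replicate 2. The 95% interval of the log2 difference lay within 0.5 of 0 for 140 of 168 genes after 4 h and 165 after 48 h for this pair, and for 158 and 162 for ruxolitinib and itacitinib.

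Of 32 genes among the 168 listed for a known role, 8 were higher and 5 lower with pacritinib after 4 h, 3 and 3 with ruxolitinib after 4 h, 3 and 2 with ruxolitinib after 48 h, and 3 and 2 with pacritinib after 48 h. These are shares of 40.6%, 18.8%, 15.6% and 15.6%, beside the shares given above for all tested genes and for those with a mean of at least 15 CPM. ZNF91 and ZNF331, both KRAB genes, rose with pacritinib after 4 h, by 0.30 and 0.32, and ZNF274, which brings SETDB1 to the ends of other zinc finger genes, fell by 0.21. The call for ZNF91 was lost in all 4 fits that left out a library (adjusted p between 0.0529 and 0.174). That for ZNF331 was lost without DMSO replicate 1 (adjusted p = 0.194) or pacritinib replicate 1 (adjusted p = 0.0683), and that for ZNF274 without DMSO replicate 1 (adjusted p = 0.229) or pacritinib replicate 2 (adjusted p = 0.357). The factors of ribosome quality control and assembly were ZNF593, which fell as given above, ZNF598, a ubiquitin ligase for collided ribosomes, and ZNF622, which joins the large subunit; ZNF598 and ZNF622 were called in none of the 20 comparisons. ZNF143, ZNF146, ZNF281, ZNF639, ZNF644 and ZNF711 were called in none of them either. ZNF687 and ZNF592 belong to a complex with ZMYND8. ZNF687 was called higher with ruxolitinib after 4 h (0.19) and with pacritinib after 4 h (0.19) and 48 h (0.17), and ZNF592 in no comparison with DMSO; the difference between these genes was not tested. The calls for ZNF687 were lost without single libraries. With ruxolitinib these were DMSO replicate 1 (adjusted p = 0.185), DMSO replicate 2 (0.0801) and ruxolitinib replicate 1 (0.354). With pacritinib after 4 h they were DMSO replicate 1 (0.0804) and pacritinib replicate 2 (0.0879), and after 48 h any of the 4 libraries (0.0804 to 0.205).

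Co-repressors through which KRAB proteins act were measured as a list of 21 genes. With pacritinib after 4 h 3 were higher and 6 lower, after 48 h 1 and 4, and with ruxolitinib after 48 h 2 and 3, against 0 of 21 with ruxolitinib after 4 h. These are shares of 42.9%, 23.8% and 23.8%, whereas 42.1%, 27.3% and 37.3% of tested genes with a mean of at least 15 CPM were called in the same comparisons. With a library left out the list had 2 higher and 4 lower in each case with pacritinib after 4 h. CBX5, which encodes heterochromatin protein 1 alpha, rose with pacritinib by 0.55 after 4 h (SE 0.057, adjusted p = 5.38e-09) and by 0.43 after 48 h. MPHOSPH8 and TASOR, subunits of the silencing complex HUSH, fell by 0.37 and 0.19 with pacritinib after 4 h, while PPHLN1, the third subunit, had a log2 change of -0.00 (adjusted p = 0.978). The TASOR call after 4 h depended on single libraries, its log2 change running from -0.227 to -0.153 when 1 was left out. In DMSO itself TASOR rose by 0.32 from 4 h to 48 h (SE 0.062, edgeR adjusted p = 0.000952). MPHOSPH8 rose there by 0.21 and CBX5 by 0.20, while PPHLN1 was not called (0.07, adjusted p = 0.443). With pacritinib after 48 h TASOR fell by 0.30 against DMSO at 48 h (SE 0.063, adjusted p = 0.000873). Its fall was 0.241 to 0.369 in fits that left out 1 library. In that comparison PPHLN1 had a log2 change of -0.17 (adjusted p = 0.0133), a call that depended on single libraries. Its log2 change ran from -0.221 to -0.129 when 1 was left out. MPHOSPH8 had a log2 change of -0.07 there (adjusted p = 0.419). With ruxolitinib after 48 h TASOR fell by 0.20 (adjusted p = 0.0176), a call that also depended on single libraries. The fall of TASOR was 0.136 to 0.264 when 1 was left out. SETDB1 rose by 0.21 with ruxolitinib after 48 h (adjusted p = 0.0288), a call lost in all 4 fits that left out a library (adjusted p between 0.073 and 0.182), and TRIM28 was called in none of the comparisons with DMSO. Among 39 genes of the ZSCAN, ZKSCAN, ZBTB and ZFP families at the same level, 11 were higher and 14 lower with pacritinib after 4 h (64.1%, with 30.6% of all tested genes and 42.1% of those with a mean of at least 15 CPM called). With ruxolitinib after 48 h 12 were higher and 2 lower (35.9%, with 25.7% and 37.3% called).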

How the data were processed

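RNA-seq of HEL cells was available as 1 table of read counts per gene for 24 libraries, which the authors deposited without normalization. Per the submitters' processing notes the tools were bcl2fastq, STAR 2.5.1a and edgeR with genome build GRCh38. For counting, tool, annotation and strand setting were not given in the sources used here. Of 34343 rows, 130 held a repeated identifier, which left 34213 genes. Total counts per library were 32153866 to 56618281.

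CPM were computed from the deposited counts and the library totals, and RPKM with the exon lengths of GENCODE 29, which also gave coordinates. Differences were tested with edgeR 4.0.16 in R 4.3.3 (quasi-likelihood, TMM scaling, filterByExpr) in 1 fit of 12 group means over 24 libraries. P-values were adjusted by Benjamini-Hochberg over 16076 genes, and an adjusted p under 0.05 was called. Standard errors came from the fold change and its F value. Intervals at 95% used the residual plus the median prior degrees of freedom of that fit. C2H2 fingers (C, 2 to 4 residues, C, 12 residues, H, 3 to 5 residues, H), KRAB and SCAN were searched by letter pattern in proteins translated from GENCODE 29, the KRAB pattern being widened after protein letters, not expression, were seen. Tables were handled in Python 3.11.15 with pandas 2.3.3. The test was checked on simulated counts.

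The genes and lists were chosen with earlier results of these data known. Genes are named from the list with a known role, from the 6 most changed called genes per direction whose libraries do not overlap, and from those highest, nearest the threshold, widest or narrowest in range. Alternatives were DESeq2 1.42.0, RLE factors, other filters, protein-coding genes only, 1 time point, a replicate block (for ruxolitinib against itacitinib also crossed), each library left out and thresholds of 10 and 20 CPM.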

Additional observations from a re-analysis of the deposited data

Results flagged for a closer look

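The change against DMSO differed between 48 h and 4 h, by edgeR's interaction term at an adjusted p under 0.05, for the following named genes; each value is the log2 change at 48 h minus that at 4 h. All rest on 2 libraries per group, and DMSO itself changed between the times for some of them.

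With pacritinib the difference was 0.90 for ZNF697 (log2 change -0.10 at 48 h, -1.0 at 4 h), 0.64 for ZNF689 (0.10, -0.54), 0.55 for ZNF45 (-0.03, -0.58), 0.55 for ZNF71 (-0.03, -0.59), 0.51 for ZNF518A (-0.09, -0.60), 0.50 for ZNF512B (0.35, -0.14) and 0.48 for ZNF236 (-0.11, -0.59). It was 0.24 for ZNF362 (0.51, 0.27). Genes with a smaller rise or a fall at 48 h were ZNF292 (-0.63), ZNF507 (-0.47), ZNF785 (-0.40), ZNF426 (-0.38) and ZNF175 (-0.33). Of these 13, 9 passed in every fit that left out a library, and ZNF175, ZNF362, ZNF426 and ZNF785 did not.

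With ruxolitinib the difference was 0.62 for ZNF333, 0.48 for ZNF83, 0.42 for ZNF431, 0.40 for ZNF584, 0.35 for ZNF362, -0.25 for ZNF521, -0.51 for ZNF217 and -0.54 for ZNF704. ZNF217 (log2 change -0.20 at 48 h, 0.31 at 4 h) and ZNF704 (-0.18, 0.36) were the only 2 of these 8 that passed in every fit that left out a library.

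With fedratinib the difference was 0.50 for ZNF574, 0.40 for ZNF296, 0.39 for ZNF384, -0.30 for ZNF521 and -0.47 for ZNF704, and ZNF574 and ZNF384 passed in every such fit. With momelotinib it was 0.74 for ZNF296, 0.46 for ZNF275 and 0.33 for ZNF512B, and ZNF296 passed in every such fit.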

How the results depend on the processing

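No value of a named gene changed direction as a called result under any alternative. Named genes kept their side of the threshold in 3380 values under other settings, came to pass in 27 and no longer passed in 27; with a library left out the numbers were 1824, 5 and 307. With only 2 libraries per group, 1 library often decides a call.

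Without 1 library the number of the 168 genes called ranged as follows. Against DMSO after 4 h it was 9 to 15 for ruxolitinib (24 with all libraries), 0 to 3 for fedratinib (3), 5 to 9 for momelotinib (13), 46 to 69 for pacritinib (81) and 0 to 3 for itacitinib (3). After 48 h it was 18 to 20 for ruxolitinib (30), 1 to 7 for fedratinib (9), 0 to 1 for momelotinib (1), 11 to 19 for pacritinib (29) and 0 to 0 for itacitinib (0). DMSO at 48 h against 4 h gave 4 to 5 (12). For the difference between times it was 6 to 11 for ruxolitinib (12), 3 to 9 for fedratinib (7), 1 to 6 for momelotinib (3) and 20 to 37 for pacritinib (41). Ruxolitinib against itacitinib gave 5 to 13 after 4 h (20) and 12 to 20 after 48 h (27), and pacritinib against fedratinib 38 to 53 after 4 h (67) and 5 to 9 after 48 h (16).

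Other settings moved 5 counts by over 1.5 times, and the cause was not tested. Fedratinib after 4 h had 7 calls with no low-count filter, 5 with the replicate block, 5 with DESeq2 and 0 with 1 time point only, against 3. Itacitinib after 4 h had 0 with 1 time point only, against 3. Momelotinib after 48 h had 2 with DESeq2, 50% of them higher, against 1, which was higher (100%). For the difference between the times of momelotinib the number was 6 with no filter, 5 with the stricter filter, 5 with the replicate block, 5 with protein-coding genes only and 7 with DESeq2 (85.7% of them higher), against 3. Ruxolitinib against itacitinib after 4 h had 11 with 1 time point only, against 20.

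The replicate numbers showed no consistent pairing of the libraries, which does not show that there was none. Deviations of same-numbered libraries from their group means correlated across genes at -0.0943 to 0.15 between the groups of the 11 comparisons with DMSO or between DMSO times, and at -0.346 to 0.38 over all 66 pairs of groups, 18 of which were over 0.1. For pacritinib and fedratinib the correlation was 0.128 at 4 h and 0.1 at 48 h, and for ruxolitinib and itacitinib -0.106 and -0.101. A block with the itacitinib numbers crossed, added after seeing the data, gave 24 calls between ruxolitinib and itacitinib at 4 h and 31 at 48 h, the same numbers as the block with the numbers as labelled, against 20 and 27 without a block. Fedratinib after 4 h and the momelotinib difference between the times each went from 3 calls to 5 with the block, over 1.5 times. The block moved the remaining counts by less than 1.5 times, to 82 for pacritinib after 4 h and 28 for ruxolitinib after 4 h, for example. With thresholds of 10 and 20 CPM there were 222 and 124 genes, of which 43.2% and 51.6% were called with pacritinib after 4 h and 10.8% and 16.9% with ruxolitinib after 4 h.

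The direction with more calls changed as well for fedratinib after 4 h, to 2 higher and 1 lower without DMSO replicate 1, against 1 higher and 2 lower.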
